A study of Mus musculus with 6 samples.

Results

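The semaphorins, Slits, netrins and ephrins, their receptors and the chemokine pair Cxcl12 and Cxcr4 were followed in ureteric bud cells of a Dicer mutant. The set was defined by gene symbol: the semaphorin, plexin, neuropilin, Slit, Robo, netrin, Unc5 and ephrin families plus Dcc, Neo1, Cxcr4 and Cxcl12. Of the netrins only Ntn1, Ntn3 and Ntn5 were taken, and Ntn4 and Ntng1 were listed as partners. All 57 symbols that met this rule had a probe set of their own, out of 19296 genes measured. The rule uses no measured value, but it was set with earlier results of these data known. Of the 57, 35 encode ligands and 22 receptors.

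Guidance cues are secreted or membrane-bound proteins that attract or repel growing cells and axons. Semaphorins act through plexins, with neuropilins as co-receptors for most of the secreted class, Slits through Robos, netrins through Dcc, neogenin and Unc5 receptors, and ephrins through Eph receptor kinases. In the kidney, Slit2 and its receptor Robo2 restrict the domain of Gdnf, the signal that draws out the ureteric bud, and Sema3a limits bud branching. Sema4c and its receptor plexin-B2 also modulate branching, and Cxcr4 marks the bud tips.

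RNA came from cells of E15.5 mouse kidneys, when repeated branching of the bud builds the collecting ducts. Kidneys were dissociated with trypsin, YFP-positive cells were sorted, and total RNA was hybridised to Affymetrix whole-transcript arrays. Of the 6 arrays, 3 held control cells, labelled wild type, and 3 held cells of the genotype Dicerc/-; Hoxb7Cre; Rosa26YFP, called mutant here. Dicer cuts precursor hairpins into mature miRNAs. Hoxb7Cre expresses Cre in the ureteric bud and its derivatives, and Rosa26YFP reports Cre activity. By the usual notation 1 Dicer allele is conditional and the other is null in every cell of the mutant animal. Both groups were of mixed strain background. Whether control cells carried the Cre and the reporter is not stated, although they too were sorted on YFP, so Cre and Dicer loss cannot be told apart. The labels call the replicates biological but do not say how many embryos gave each sample, so p-values cover the spread between these samples only, which may be technical.

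Array medians ran from 7.47 to 7.54 on the log2 scale. Dicer1 (probe set 10402444) read 10.31, 10.38 and 10.25 on the control arrays and 9.80, 9.72 and 9.64 on the mutant arrays, a log2 fold change of -0.59 (limma, adjusted p = 0.0005). This is 66.3% of the control level. Whether the probe set covers the deleted part is not known here, and mature miRNAs were not measured. The groups did not overlap, and a two-sided exact permutation test gave p = 0.1, the smallest that 3 against 3 arrays allow. All 13 measured markers of the ureteric epithelium lay above 7.51, the median of all probe sets, and 8 of 50 markers of other kidney cell types did. Of those 50, 3 rose and 4 fell at an adjusted p of 0.05 (limma), 14% against 25.8% of all genes. The cap mesenchyme gene Six2 rose by a log2 fold change of 3.29 (limma, adjusted p = 3.29e-06). Cap mesenchyme markers did not rise as a list: among its 10 genes 2 rose, 1 fell and 7 did not pass. Beside Six2, Sall1 rose (log2 fold change 0.30) and Osr1 fell (-0.67). Changes were negative for 7 of these 10 genes and positive for 3. The part of Six2 and of the other cap mesenchyme markers in the guidance gene values, that of Robo2 among them, was not tested. Of those 13 epithelial markers 6 fell, 1 rose and 6 did not pass. Thus 53.8% passed, against 39.6% of all genes above the median. Mal fell most (log2 fold change -0.86), followed by Hoxb7 (-0.40), and Wnt9b rose (1.42), while Cdh1 and Epcam, at 0.03 and -0.10, were among those that did not pass. The part of these markers in the guidance gene values was not tested.

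Guidance genes changed in both directions, and the largest changes were a fall of Sema4a and Slit1 and a rise of Sema7a. In limma's test 11 of the 57 were higher and 14 lower in mutant cells at an adjusted p of 0.05, and 32 did not pass. The 25 that passed are 43.9% of the set, against 25.8% of all genes. By direction, 11.8% of all genes were higher and 13.9% lower. Brightness bears on this share: 18 of the 35 guidance genes above the median of all probe sets passed, where 39.6% of all such genes did. Below the median 7 of 22 passed, against 11.9%. The median log2 fold change of the 57 was -0.05, the same as that of all genes at this precision, and the median size was 0.21 against 0.13. A called change reached 2-fold in 3 of the 57 (5.26%) and in 1.08% of all genes. Arrays of the groups did not overlap for 36 of the 57, against 42.5% of all genes. Above the median this held for 28 of 35, against 62.3% of all such genes, and below it for 8 of 22, against 22.4%. It also held for 11 of the 32 guidance genes that did not pass. Ligands and receptors had like shares, with 16 of 35 and 9 of 22 past the threshold. Of 63 listed partner genes of these pathways 20 passed (31.7%), 11 higher and 9 lower. Of the 63, 44 lay above the median, where 39.6% of all genes passed. Each array left out in turn gave 20 to 28 guidance genes past the threshold, and 18 of the 25 calls were kept in all 6 of those fits.

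**Figure D1:**
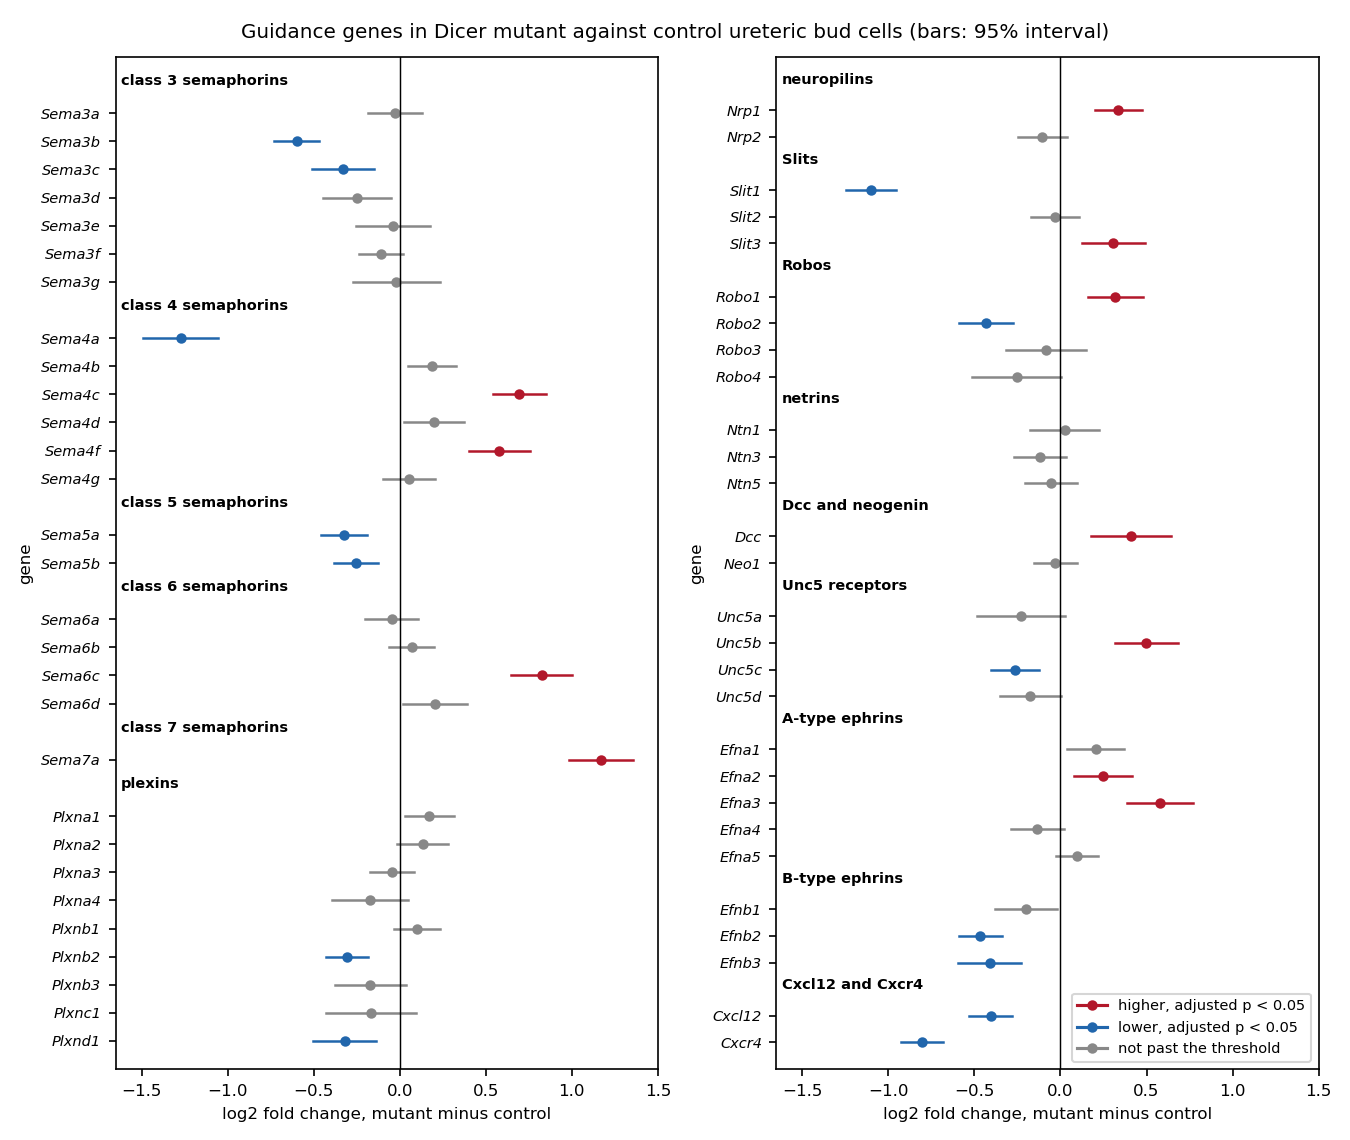
Log2 fold change (mutant minus control, horizontal axis) of each of the 57 guidance genes, grouped by family; points are the limma estimates, bars their 95% interval, red and blue mark genes higher or lower at an adjusted p of 0.05. Sema4a (-1.27), Slit1 (-1.10) and Sema7a (1.17) lie farthest from 0, and most families hold members on both sides of it.

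**Figure D2:**
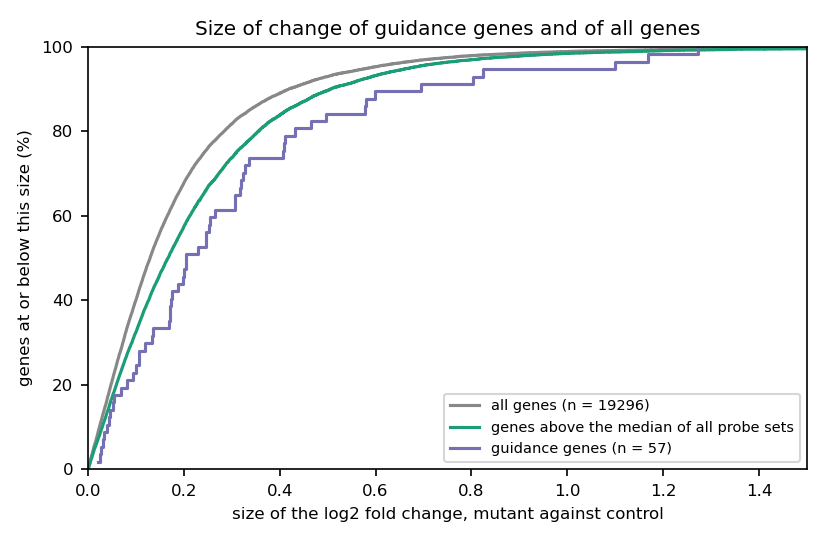
Cumulative share of genes (percent, vertical axis) against the size of the log2 fold change for the 57 guidance genes, all 19296 genes and genes above the median of all probe sets. The median size is 0.21 for guidance genes, 0.13 for all genes and 0.17 for the brighter genes.

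Among the 20 semaphorins, 4 rose, 5 fell and 11 did not pass. Thus 45% passed, against 25.8% of all genes and 39.6% of those above the median. Of the 7 secreted class 3 genes none rose and 2 fell, with log2 fold changes from -0.60 to -0.02. Of the 13 membrane-bound genes of classes 4 to 7, 4 rose and 3 fell.

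Sema4a, a transmembrane semaphorin known from immune cells and the retina, had the largest change of the whole set. Its probe set (10499378) read 8.68, 8.57 and 8.53 in control cells and 7.50, 7.31 and 7.15 in mutant cells. Every mutant array lay more than 1 log2 unit below the lowest control array. The mean went from 8.59 ± 0.08 to 7.32 ± 0.18 (SD, n = 3 each), 2.41-fold lower (limma, adjusted p = 0.000108).

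Other class 4 genes moved the opposite way. Sema4c (probe set 10353899), the ligand of plexin-B2, read 9.65, 9.70 and 9.84 in control cells and 10.41, 10.48 and 10.39 in mutant cells. All mutant arrays were above all control arrays, and the rise was 1.62-fold (log2 fold change 0.69, standard error 0.07; limma, adjusted p = 0.000293). Sema4f (10545608), a transmembrane ligand known from synapses, went from 7.08, 6.92 and 7.07 to 7.48, 7.63 and 7.69. Its groups were also separate, and it rose 1.49-fold (limma, adjusted p = 0.00131). Sema4b and Sema4d had log2 fold changes of 0.19 and 0.20 and missed the threshold (limma, adjusted p = 0.053 and 0.0919). Their arrays did not overlap, which holds for 42.5% of all genes. For Sema4d the highest control array read 9.98 and the lowest mutant array 9.99. Sema4g had a log2 fold change of 0.05, with a 95% interval from -0.10 to 0.20.

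The largest rise was that of Sema7a, a membrane-anchored semaphorin that binds plexin-C1 and integrins. Its probe set (10585778) read 7.28, 7.17 and 7.33 in control cells and 8.31, 8.57 and 8.40 in mutant cells. The groups were nearly 1 log2 unit apart at their closest. From 7.26 ± 0.08 it rose to 8.43 ± 0.14 (SD, n = 3 each), 2.25-fold (limma, adjusted p = 8.33e-05). Its receptor Plxnc1 had a log2 fold change of -0.17 and fell short of the threshold.

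Sema6c (10494174), a transmembrane ligand of A-type plexins, was 7.38, 7.21 and 7.20 in control cells and 8.02, 8.21 and 8.03 in mutant cells. The lowest mutant value exceeded the highest control value by over 0.6 log2 units, and the rise was 1.77-fold (limma, adjusted p = 0.000264). The other class 6 genes did not pass: Sema6a, Sema6b and Sema6d had log2 fold changes of -0.05, 0.07 and 0.21. Both class 5 genes, which carry thrombospondin repeats, fell by small amounts. Sema5a had a log2 fold change of -0.32 (limma, adjusted p = 0.00502) and Sema5b one of -0.25 (limma, adjusted p = 0.0124). Without mutant replicate 1, Sema5b did not pass (limma, adjusted p = 0.0602), nor with the replicate number as a block (limma, adjusted p = 0.0556).

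Of the secreted class, Sema3b (10596680), a neuropilin ligand, changed most. It read 8.82, 8.92 and 8.90 in control cells and 8.30, 8.31 and 8.24 in mutant cells. The replicates of each group lay within about 0.1 of one another, and the fall was 1.51-fold (log2 fold change -0.60, standard error 0.06; limma, adjusted p = 0.000265). Sema3c, a further secreted cue, had a log2 fold change of -0.33 (limma, adjusted p = 0.0172). That call was lost without control replicate 2 (limma, adjusted p = 0.0607) and without mutant replicate 3 (limma, adjusted p = 0.0586). Sema3a, the branching inhibitor, was 6.67, 6.73 and 6.77 in control cells against 6.63, 6.64 and 6.81 in mutant cells. These ranges overlapped, and the 95% interval of the log2 fold change, from -0.18 to 0.13, holds 0. Sema3d missed the threshold with a log2 fold change of -0.25 (limma, adjusted p = 0.0717) and passed without control replicate 1 (-0.34, limma, adjusted p = 0.00874). Sema3e, Sema3f and Sema3g had log2 fold changes of -0.04, -0.11 and -0.02.

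**Figure D3:**
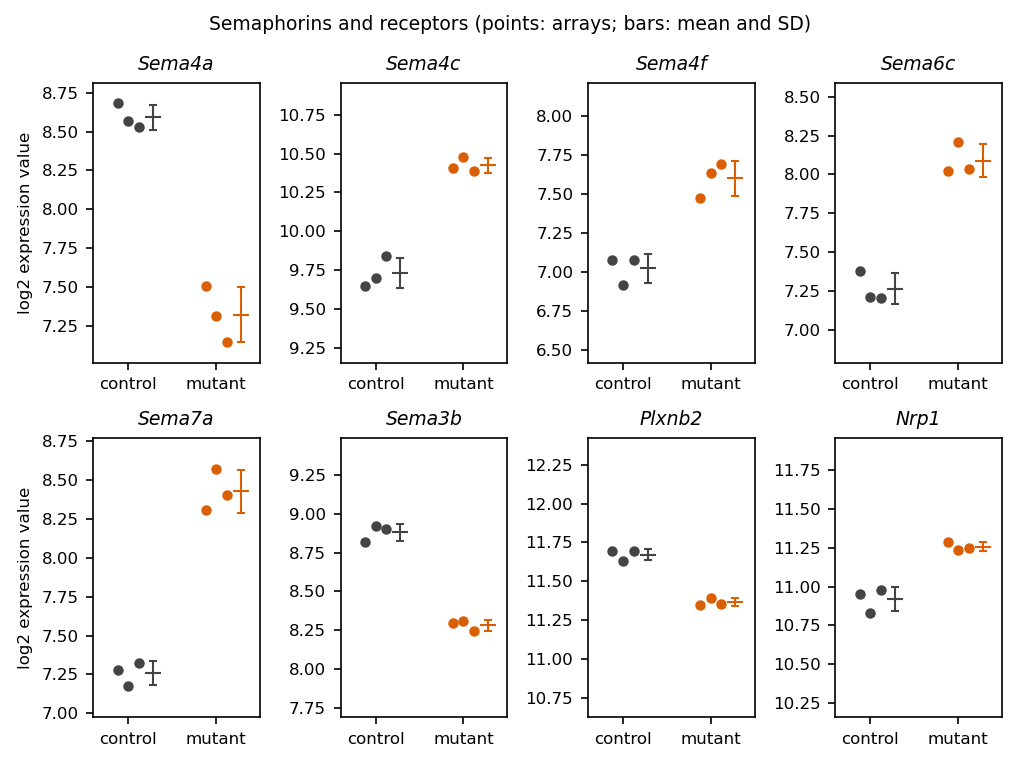
Log2 expression values of 6 semaphorins and of the receptors Plxnb2 and Nrp1 on the 3 control and 3 mutant arrays (points), with the mean and SD beside them; each vertical axis spans the same 1.8 log2 units. Sema4a, Sema3b and Plxnb2 are lower and the other 5 higher in mutant cells. All 8 genes shown were picked among those past the threshold, and their groups do not overlap. Lack of overlap alone holds for 42.5% of all genes and for all 25 guidance genes past the threshold.

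Of 9 plexins 2 fell and 7 did not pass, with log2 fold changes from -0.32 to 0.17. Thus 22.2% passed, against 25.8% of all genes. Plxnb2 (10431424), the receptor of Sema4c, read 11.69, 11.63 and 11.69 in control cells and 11.34, 11.39 and 11.36 in mutant cells. The groups stood apart by more than their spread, with a fall of 1.24-fold (limma, adjusted p = 0.00406), while its ligand rose. Plxnd1, a receptor known from endothelium, had a log2 fold change of -0.32 (limma, adjusted p = 0.0205). It did not pass without control replicate 2, mutant replicate 1 or mutant replicate 3 (limma, adjusted p = 0.0627, 0.0732 and 0.0634). Of 10 endothelial markers 0 passed in limma, and 1 had an unadjusted p under 0.05. Of the 10, 9 had a negative log2 fold change, and the median was -0.20. Their mean level ran from 6.64 to 7.05 on control arrays and from 6.53 to 6.83 on mutant arrays, and their part in the value of Plxnd1 was not tested. In sorted bulk samples such as these, fewer cells of a type and less RNA per cell cannot be told apart.

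Nrp1 (10576639), the co-receptor of class 3 semaphorins and of VEGF, rose. Its values were 10.95, 10.83 and 10.98 in control cells and 11.29, 11.23 and 11.25 in mutant cells, with no overlap. The rise was 1.26-fold (limma, adjusted p = 0.00491). Nrp2, its paralog, had a log2 fold change of -0.11 and fell short of the threshold. Among the remaining plexins, Plxna1 had a log2 fold change of 0.17 (limma, adjusted p = 0.0812), Plxna2 0.13, Plxna3 -0.04, Plxna4 -0.17, Plxnb1 0.10 and Plxnb3 -0.17. Arrays did not overlap for Plxna1 and Plxna2, as for 42.5% of all genes. Plxna4 passed without control replicate 3 (limma, adjusted p = 0.0261) and Plxnb3 without mutant replicate 3 (limma, adjusted p = 0.0276).

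Of 22 listed partners of plexins and neuropilins, 5 rose, 4 fell and 13 did not pass. Thus 40.9% passed, against 25.8% of all genes. Of the 22, 15 lay above the median of all probe sets, where 39.6% of all genes passed. Dpysl5, a collapsin response mediator that carries semaphorin signals to the cytoskeleton, rose 2.12-fold, from 8.33 ± 0.08 to 9.41 ± 0.09 (SD, n = 3 each; limma, adjusted p = 6.04e-05). The adaptor Gipc1, which binds the tail of neuropilin-1, was lower, with a log2 fold change of -0.46 (limma, adjusted p = 0.0018).

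The promoters of the semaphorins with the largest changes are shown because the 3 genes moved by more than 0.8 log2 units. Each runs 300 bases 5' to 3' on the gene's own strand in RefSeq's GRCm38.p6 table, from 250 bases before a start to 50 after it, at the start farthest upstream of those listed. Capitals mark the GC box GGGCGGG or its reverse complement CCCGCCC, the site of SP1-type factors. Sema4a lies at chr3:88461133-88461432 on the minus strand, Sema7a at chr9:57939862-57940161 and Sema6c at chr3:95160170-95160469, both on the plus strand.
Sema4a: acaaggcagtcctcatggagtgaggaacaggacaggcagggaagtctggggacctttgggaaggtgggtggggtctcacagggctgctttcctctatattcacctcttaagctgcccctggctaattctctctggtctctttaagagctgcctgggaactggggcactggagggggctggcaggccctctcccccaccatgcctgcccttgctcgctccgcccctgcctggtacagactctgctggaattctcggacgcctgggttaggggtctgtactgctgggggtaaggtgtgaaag
Sema7a: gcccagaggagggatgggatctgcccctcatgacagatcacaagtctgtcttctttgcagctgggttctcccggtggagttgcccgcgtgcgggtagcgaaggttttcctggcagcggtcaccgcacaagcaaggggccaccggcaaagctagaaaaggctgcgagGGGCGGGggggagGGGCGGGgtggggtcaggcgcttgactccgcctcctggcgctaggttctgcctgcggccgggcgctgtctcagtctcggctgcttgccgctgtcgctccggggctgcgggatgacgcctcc
Sema6c: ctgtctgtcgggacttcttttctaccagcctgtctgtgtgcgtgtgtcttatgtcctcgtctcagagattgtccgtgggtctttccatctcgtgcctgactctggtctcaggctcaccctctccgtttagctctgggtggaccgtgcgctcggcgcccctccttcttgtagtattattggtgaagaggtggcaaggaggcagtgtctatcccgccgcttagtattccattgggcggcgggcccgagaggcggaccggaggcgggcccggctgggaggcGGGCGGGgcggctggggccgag
The window of Sema4a held 0 GC boxes, that of Sema7a 2 and that of Sema6c 1. Sema4a has 4 starts in the table and Sema6c 2, and which of them these cells use was not measured.

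Slit ligands and Robo receptors each showed members moving in opposite directions. Of 3 Slits 1 fell and 1 rose, and of 4 Robos 1 fell and 1 rose. Slit1 (probe set 10467599), best known as a repellent in the nervous system, read 8.65, 8.53 and 8.71 in control cells and 7.57, 7.52 and 7.50 in mutant cells. The groups were about 1 log2 unit apart with little spread in either. It fell from 8.63 ± 0.09 to 7.53 ± 0.04 (SD, n = 3 each), 2.14-fold (limma, adjusted p = 3.78e-05), the lowest adjusted p of the 57.

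Slit2 (10521759), the Slit with a known role in positioning the ureteric bud, did not differ beyond its spread. Values were 11.70, 11.66 and 11.60 in control cells and 11.60, 11.56 and 11.69 in mutant cells, which overlap. The 95% interval of its log2 fold change ran from -0.17 to 0.11. Slit3 had a small rise, from 6.78, 6.90 and 6.77 to 7.07, 7.03 and 7.28, with a log2 fold change of 0.31 (limma, adjusted p = 0.0241). The rise of Slit3 was lost without control replicate 1 or 3 or mutant replicate 1 or 3 (limma, adjusted p = 0.0662, 0.0558, 0.0511 and 0.0655), and with the replicate block (limma, adjusted p = 0.0632).

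Robo2 (10440344), the kidney receptor of Slit2, read 8.83, 8.98 and 8.86 in control cells and 8.47, 8.38 and 8.53 in mutant cells. The arrays were separate by group, and the level was 1.35-fold lower in mutant cells (log2 fold change -0.43, standard error 0.07; limma, adjusted p = 0.00263). Robo1 (10436519) went the other way, from 10.61, 10.52 and 10.65 to 10.81, 11.00 and 10.93. This rise of 1.25-fold was also larger than the spread (limma, adjusted p = 0.0117). Robo1 and Robo2 are adjacent protein-coding genes on chromosome 16 in RefSeq's GRCm38.p6. Robo3 and Robo4, adjacent on chromosome 9, had log2 fold changes of -0.08 and -0.25 and fell short of the threshold. Robo4 is a marker of endothelium. Of 10 listed endothelial markers 0 passed, but 9 had a negative log2 fold change, and their part in the value of Robo4 was not tested.

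Downstream of the Robos, 3 of 12 listed partners rose, 1 fell and 8 did not pass. All 12 lay above the median of all probe sets, and 33.3% passed, against 39.6% of all such genes. Srgap1, which binds Robo1 and switches off the small GTPase Cdc42, read 8.01, 8.27 and 8.25 in control cells and 9.25, 9.24 and 9.15 in mutant cells. It thus rose 2.05-fold with no overlap (limma, adjusted p = 0.00013). The paralog Srgap3 was 1.29-fold lower (limma, adjusted p = 0.0028), while Srgap2 had a log2 fold change of 0.02 and fell short of the threshold. Usp33, a deubiquitinase that binds Robo1, rose 1.34-fold (limma, adjusted p = 0.00223), and the heparan sulfate proteoglycan Sdc1, a class of Slit co-receptor, had a log2 fold change of 0.28 (limma, adjusted p = 0.0263).

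**Figure D4:**
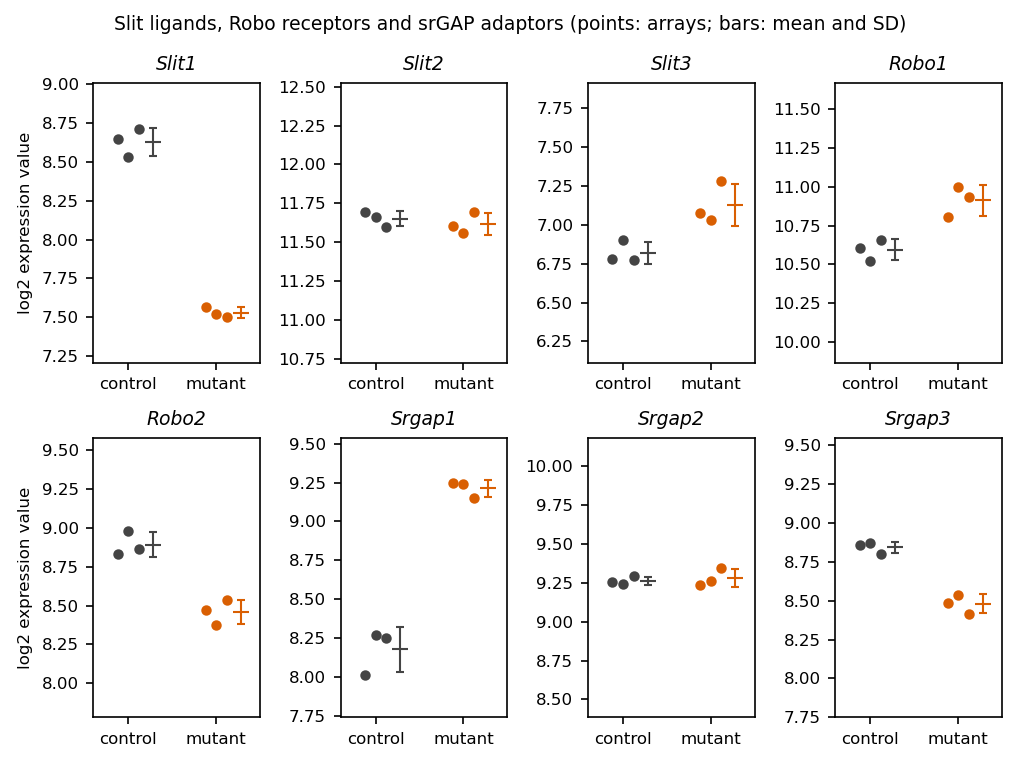
Log2 expression values of the Slits, of Robo1 and Robo2 and of 3 srGAP adaptors on the 3 control and 3 mutant arrays (points), with the mean and SD beside them; each vertical axis spans the same 1.8 log2 units. Slit1, Robo2 and Srgap3 are lower and Slit3, Robo1 and Srgap1 higher in mutant cells without overlap, and the values of Slit2 and Srgap2 overlap.

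Slit2 and Slit3 each contain a gene of miR-218, a miRNA known to target Robo1 and Robo2. Its mature sequence from RefSeq (GRCm38.p6), identical from both loci at chr5:48223966-48223986 and chr11:35616840-35616860, is shown with the seed, bases 2 to 8, in capitals.
mmu-miR-218-5p: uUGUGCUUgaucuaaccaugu
The arrays do not measure mature miRNAs, but they hold probe sets for the precursors. Mir218-1, within Slit2, read 5.91, 6.34 and 6.27 in control cells and 6.68, 6.42 and 6.64 in mutant cells, a log2 fold change of 0.41 (limma, adjusted p = 0.04), next to -0.03 for Slit2 itself. Mir218-2, within Slit3, had a log2 fold change of -0.25 with overlapping arrays (limma, adjusted p = 0.115), next to 0.31 for Slit3. Both precursor probe sets were dimmer than the median probe set. Loss of mature miR-218 was not measured, and its part in the values of Robo1 and Robo2 was not tested.

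None of the 3 netrins in the set passed in limma, and 0 of the 3 had an unadjusted p under 0.05. Ntn1 (10387170), the founding member, read 7.11, 7.32 and 6.99 in control cells and 7.14, 7.12 and 7.23 in mutant cells, with overlapping groups and a 95% interval of the log2 fold change from -0.18 to 0.23. Ntn3 and Ntn5 had log2 fold changes of -0.12 and -0.05. All 3 were dimmer than the median probe set.

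Unc5b (10369388), a repulsive netrin receptor known from vessels, rose from 9.62, 9.44 and 9.73 to 10.11, 10.08 and 10.08. Control arrays spread over about 0.3 log2 units and mutant arrays over less than 0.05, without overlap. The rise was 1.41-fold (log2 fold change 0.50, standard error 0.08; limma, adjusted p = 0.00292). Unc5c fell slightly, with a log2 fold change of -0.27 (limma, adjusted p = 0.0138). It did not pass without mutant replicate 1 (limma, adjusted p = 0.0587) or mutant replicate 3 (limma, adjusted p = 0.0546). Unc5a and Unc5d had log2 fold changes of -0.23 and -0.18 and fell short of the threshold, although Unc5a passed without control replicate 3 (limma, adjusted p = 0.0251). Unc5d was the guidance gene with more than 1 probe set, and its second probe set did not pass either (log2 fold change -0.27).

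Dcc (10459671), the attractive netrin receptor, was 6.72, 6.72 and 7.02 in control cells and 7.09, 7.25 and 7.34 in mutant cells. The gap between the groups was under 0.1 log2 units. The rise of 1.33-fold (limma, adjusted p = 0.0203) was lost without control replicate 1 or 2 or mutant replicate 2 or 3 (limma, adjusted p = 0.0623, 0.0714, 0.0678 and 0.072). Neo1 (10594110), its paralog, read 11.31, 11.34 and 11.37 in control cells and 11.26, 11.35 and 11.31 in mutant cells, with overlapping arrays. The 95% interval of its log2 fold change ran from -0.16 to 0.10.

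Among 9 measured partners of netrins and repulsive guidance molecules, 2 fell and 7 did not pass. Thus 22.2% passed, against 25.8% of all genes. Flrt2, a membrane ligand of Unc5 receptors, read 10.01, 10.07 and 10.05 in control cells and 9.03, 8.93 and 8.82 in mutant cells, 2.18-fold lower (limma, adjusted p = 4.2e-05). Dscam, an adhesion molecule that binds netrin, was 1.67-fold lower (limma, adjusted p = 0.00196). Flrt2 thus fell, as did Unc5c, while Unc5b rose. Unc5a and Unc5d, at log2 fold changes of -0.23 and -0.18, did not pass.

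Ephrins of the A type are anchored by a lipid and those of the B type span the membrane. Of 5 A-type genes 2 rose and none fell in limma, and of 3 B-type genes 2 fell and none rose. The difference between the types was not tested. Efna3 (10499545) read 7.16, 6.90 and 7.19 in control cells and 7.66, 7.66 and 7.67 in mutant cells. Mutant arrays agreed to about 0.01 and all lay above the control arrays, a rise of 1.49-fold (limma, adjusted p = 0.0018). Efna2 had a log2 fold change of 0.25 (limma, adjusted p = 0.0387). It did not pass without control replicate 2 or without any mutant array in turn (limma, adjusted p = 0.0781, 0.105, 0.0907 and 0.104), with the replicate block (limma, adjusted p = 0.0701) or after quantile normalization (limma, adjusted p = 0.0553). Efna1, Efna3 and Efna4 are adjacent on chromosome 3. Efna1 had a log2 fold change of 0.20 (limma, adjusted p = 0.0747; 0.0373 without control replicate 3) and Efna4 one of -0.14, and Efna3, the middle gene, was the one past the threshold. Efna5 had a log2 fold change of 0.09.

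Efna3 is a well-known target of miR-210, shown here because a mature miRNA needs Dicer; the locus is chr7:141221407-141221428 on the minus strand (RefSeq, GRCm38.p6), with the seed in capitals.
mmu-miR-210-3p: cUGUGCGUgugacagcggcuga
The probe set of its precursor, Mir210, had a log2 fold change of -0.06 and fell short of the threshold. Sema6a, a known target of miR-27, read 11.62, 11.75 and 11.82 in control cells and 11.70, 11.65 and 11.71 in mutant cells, with overlapping groups. The sequence of miR-27a is at chr8:84208727-84208747 on the plus strand.
mmu-miR-27a-3p: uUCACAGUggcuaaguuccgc
Its seed differs from those of miR-218 and miR-210. Levels of these miRNAs were not measured, and their part in the values was not tested.

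Efnb2 (10576911), the B-type ephrin of arteries that also acts in the joining of ureter and bladder, read 11.05, 11.04 and 11.00 in control cells and 10.62, 10.56 and 10.52 in mutant cells. The groups were separate by nearly 0.4 log2 units, and the fall was 1.38-fold (limma, adjusted p = 0.000712). Efnb3 (10387483), known as a midline repellent in the spinal cord, went from 7.66, 7.59 and 7.58 to 7.03, 7.27 and 7.30, 1.33-fold lower (limma, adjusted p = 0.00683). Mutant replicate 1 was the lowest of these values, and without it Efnb3 still passed. Efnb1 had a log2 fold change of -0.20 and missed the threshold (limma, adjusted p = 0.102). Its arrays did not overlap, which holds for 42.5% of all genes.

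Of 13 measured Eph receptors, 2 rose, 1 fell and 10 did not pass. The share past the threshold was 23.1%, against 25.8% of all genes. Ephb3, which binds B-type ephrins, read 9.62, 9.61 and 9.66 in control cells and 8.91, 8.98 and 8.91 in mutant cells, 1.63-fold lower (limma, adjusted p = 0.000127). Ephb4, the main receptor of Efnb2, rose 1.34-fold, from 9.99 ± 0.04 to 10.41 ± 0.04 (SD, n = 3 each; limma, adjusted p = 0.00105), while that ligand fell. Ephb6, which lacks kinase activity, had a log2 fold change of 0.22 (limma, adjusted p = 0.0312). All 3 that passed were B-type receptors, but the difference between the types was not tested. Epha3, Epha5, Epha6, Epha8, Epha10 and Ephb1 were dimmer than the median probe set. Epha2 had a log2 fold change of 0.18 and missed the threshold (limma, adjusted p = 0.06). Its arrays did not overlap, which holds for 42.5% of all genes. The A-type receptor Epha4, which is known in the ureteric bud, read 9.78 to 10.06 in control and 9.87 to 9.95 in mutant cells, which overlap.

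**Figure D5:**
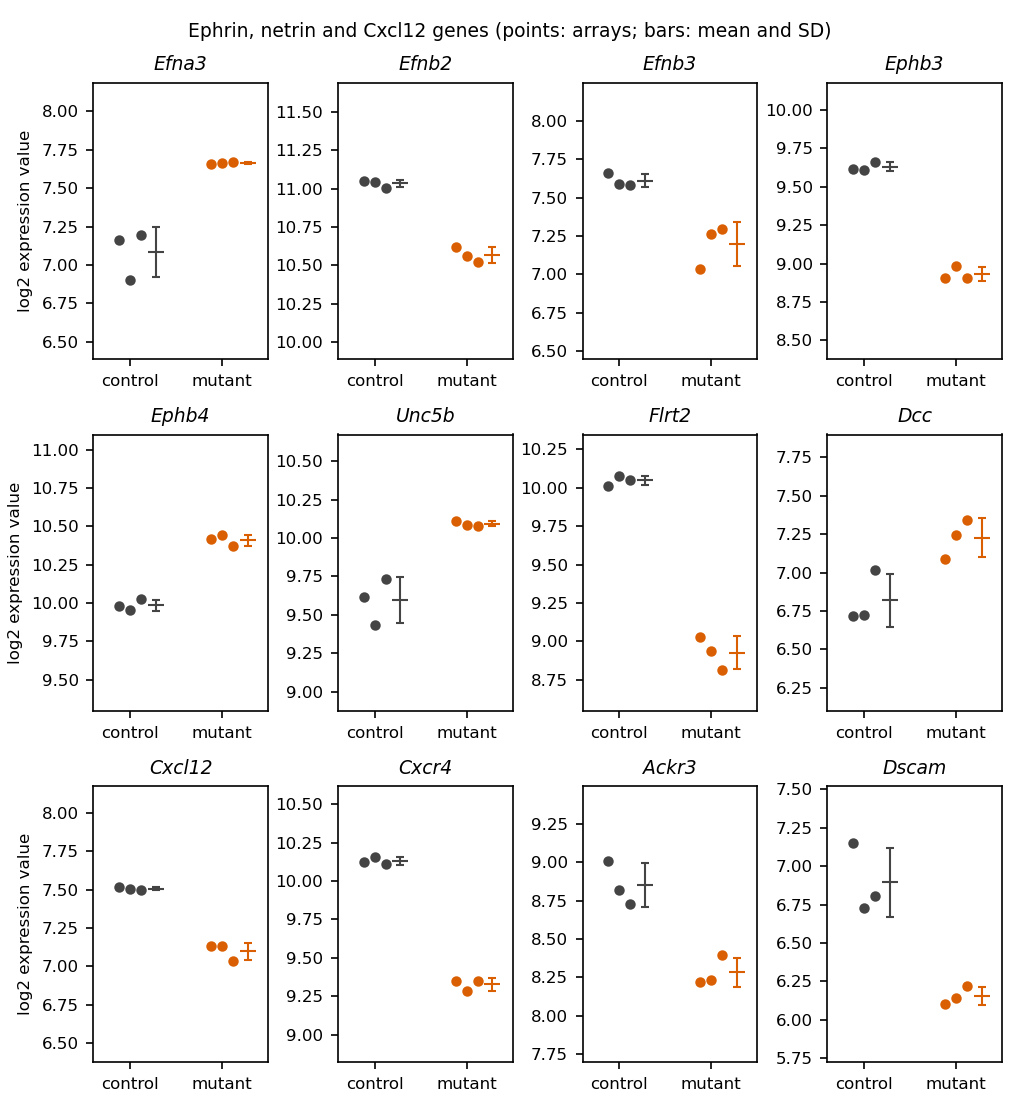
Log2 expression values of ephrin, Eph receptor, netrin branch and Cxcl12 branch genes on the 3 control and 3 mutant arrays (points), with the mean and SD beside them; each vertical axis spans the same 1.8 log2 units. Efna3, Ephb4, Unc5b and Dcc are higher and the other 8 lower in mutant cells. All 12 genes shown were picked among those past the threshold, and their groups do not overlap. Lack of overlap alone holds for 42.5% of all genes, and 25.8% of all genes pass the threshold.

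Both genes of the Cxcl12 and Cxcr4 pair were lower. Cxcr4 (10357472), the receptor and a tip marker, read 10.12, 10.16 and 10.11 in control cells and 9.35, 9.28 and 9.35 in mutant cells. Replicates differed by less than 0.1 and the groups by about 0.8, a fall of 1.75-fold (limma, adjusted p = 6.27e-05). Cxcl12 (10541075), the ligand, went from 7.52, 7.50 and 7.50 to 7.13, 7.13 and 7.03, 1.33-fold lower (limma, adjusted p = 0.00135). Ackr3, the second receptor, which scavenges Cxcl12, fell 1.48-fold from 8.85 ± 0.14 to 8.28 ± 0.10 (SD, n = 3 each; limma, adjusted p = 0.0023). Dpp4, a peptidase that inactivates Cxcl12, rose 1.62-fold (limma, adjusted p = 0.000273), and the other 5 of 7 listed partners did not pass.

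Of 11 other genes of the ureteric tip 9 fell and 0 rose in limma. All 11 lay above the median of all probe sets, and 81.8% passed, against 39.6% of all such genes in either direction. The mean level of the 11 ran from 11.29 to 11.37 on control arrays and from 10.81 to 10.92 on mutant arrays. The fall of Cxcr4 thus moved with the tip markers, and their part in it was not tested. Cxcl12 is known from stroma and endothelium. Of 12 stromal markers 1, Acta2, fell (log2 fold change -0.72; limma, adjusted p = 0.0168) and 11 did not pass. The stromal mean level ran from 6.52 to 6.76 on control arrays and from 6.51 to 6.61 on mutant arrays, and its part in the value of Cxcl12 was not tested. For Dcc and Slit1, which are known from neurons, 1 of 6 measured neuronal and Schwann cell markers rose, Tubb3 (log2 fold change 0.69; limma, adjusted p = 0.00119). The mean level of those markers was 6.13 to 6.27 in control and 6.20 to 6.28 in mutant cells, and their part was not tested.

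Cxcr4 has the next largest fall among guidance genes with a promoter in the RefSeq table. Its window lies at chr1:128592250-128592549 on the minus strand of GRCm38.p6, with GC boxes in capitals as above. Cxcr4 is also a known target of miR-146a (chr11:43374435-43374456, minus strand), shown with its seed in capitals.
Cxcr4: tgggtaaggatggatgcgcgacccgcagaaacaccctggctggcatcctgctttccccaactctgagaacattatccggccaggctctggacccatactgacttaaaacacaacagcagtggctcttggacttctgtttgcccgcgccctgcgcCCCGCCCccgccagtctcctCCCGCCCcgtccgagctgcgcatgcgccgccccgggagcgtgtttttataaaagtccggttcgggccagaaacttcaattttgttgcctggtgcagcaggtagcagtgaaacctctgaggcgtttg
mmu-miR-146a-5p: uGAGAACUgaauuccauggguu
The Cxcr4 window held 2 GC boxes. The Mir146 precursor probe set, at means of 3.04 and 2.98, was near the lowest value on the arrays, 2.26, and gives no measure of the precursor. The part of miR-146a in the value of Cxcr4 was not tested.

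Promoters of guidance genes were richer in GC than the median promoter, at a median of 64.3% for higher genes, 64.7% for lower genes and 63.5% for genes that did not pass. RefSeq's table held 62 promoters of 47 of the 57 genes, with a median GC content of 64.0% against 52.7% for all 32851 promoters. A GC box, GGGCGGG on either strand, was present in 62.9% of the 62 and in 25.6% of all. It was present for 8 of 10 higher genes, 7 of 11 lower genes and 19 of 26 genes that did not pass. Other motifs were searched on both strands. CCAAT was found in 21.0% of the 62 against 37.4% of all promoters, TATAAA in 4.84% against 13.6%, the hypoxia core ACGTG in 14.5% against 19.6%. The ETS core CCGGAAG was found in 1.61% against 8.86% and the TCF core CTTTGAT in 3.23% against 3.73%. Members of 1 gene family share ancestry and 11 genes have several starts, so these shares are descriptions.

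Other guidance genes that neighbour each other are given by their values, with no test of the differences. Sema3a and Sema3e, on chromosome 5 with 3 protein-coding genes between them, had log2 fold changes of -0.03 and -0.04. Sema3b and Sema3f lie on chromosome 9 with 3 protein-coding genes between them, with log2 fold changes of -0.60 and -0.11. Sema3d and Sema3a are adjacent on chromosome 5, with log2 fold changes of -0.25 and -0.03, and neither passed.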

How the data were processed

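The authors deposited 1 log2 value per probe set and array. Per the submitters' processing notes, RMA in affy made them (versions, build and filters: not given in the sources used here). This method brings arrays to a common distribution and compresses changes of dim genes. Levels of different probe sets were not compared, except with the median of all probe sets and, for Mir146, with the lowest value on the arrays.

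Of 23309 probe sets, 20728 had 1 gene symbol, 1174 several and 1407 were unnamed. For each symbol the probe set with the highest mean was kept, giving 19296 genes, with no filter on brightness. All 57 guidance genes matched RefSeq (GRCm38.p6) by gene ID, with 0 symbols changed.

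Genotype was the only term of a linear model over all genes (lmFit and eBayes of limma 3.58.1, R 4.3.3, two-sided), with Benjamini-Hochberg adjustment across the 19296 genes and calls at 0.05. No batch, slide or date was available. Same-numbered arrays did not deviate together (r from -0.22 to -0.10), so the main fit had no block. Tested on simulated arrays of these 19296 genes, the fit called 46 of 50 genes given a log2 change of 0.5 and 50 of 50 given 1, with 16 false calls. The simulated noise was normal and independent between genes, and far fewer genes were changed than were called here. These rates therefore need not hold for the real arrays. The 3 arrays a group limit the precision.

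Values per array are given for members past the threshold with a log2 fold change of at least 0.4 and for known kidney genes, and up to 3 partners per list, of which 1 semaphorin partner is not reported here. Slit3, Sema6a, Sdc1, Srgap2, Epha4, other Eph receptors that did not pass, the marker genes and the miRNA probe sets were named after their values were seen. The members and lists were chosen with earlier results of these data known. Listed genes that lacked an own probe set were not analysed here. Alternatives were each array left out, a replicate block, 2 scalings, a brightness filter, probe set rules, variance models, array weights and other thresholds.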

Additional observations from a re-analysis of the deposited data

How the results depend on the processing

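Under the 14 alternative fits, 18 of the 25 calls were kept in every fit that tested them, and no called guidance gene changed direction. The 7 others, Dcc, Efna2, Plxnd1, Sema3c, Sema5b, Slit3 and Unc5c, were each lost without at least 1 array. Leaving out 1 array gave 20 to 28 guidance genes past the threshold (8 to 12 higher, 11 to 16 lower), 15 to 25 partner genes and a median log2 fold change of the guidance genes from -0.090 to -0.036. Dicer1 stayed between -0.63 and -0.56. With the replicate number as a block, 9 guidance genes were higher and 13 lower, 22 in all, and Efna2, Sema5b and Slit3 were lost; the numbers do not pair the arrays by their labels or their deviations. Centring each array on its median moved the median to -0.012 and added Efna1, Plxna1, Sema4b and Sema4d to the higher genes. At an adjusted p of 0.01, 7 were higher and 10 lower, and 13 partner genes passed, against 31 at 0.1. The array number limits what can be shown: standard errors of the 57 log2 fold changes were 0.05 to 0.11, and the smallest called change was 0.25. Without dim genes 38 of the 57 were tested, and Cxcl12, Dcc, Sema5b and Slit3 were not among them.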
